A study of Mus musculus with 15 samples.

Results

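Mitochondrial RNA fragments are short pieces of the transcripts of mitochondrial DNA that were captured in small-RNA libraries meant for microRNAs. They were defined here as sequenced inserts that match, over their full length and with no mismatch, the sense strand of a mouse transcript whose gene name begins with mt- and that match no microRNA hairpin. All 37 such genes (22 tRNA genes, 2 rRNA genes and 13 protein-coding genes) had reads. They gave 4808 of the 627951 distinct inserts of the series and 36153 of its 6892924 reads.

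The libraries came from cultured mouse mammary cells, with 15 libraries in 5 groups of 3. MM3MG, from BALB/c mice, is labelled a normal mammary epithelial line. MM3MG-Her2 cells are MM3MG cells that received pLSXN-Neu by retroviral transduction, and TUBO is a line established from primary tumours of Balb-NeuT mice. The other 2 groups were not cells: exosomes taken from the medium of TUBO cultures, and the supernatant that remained after exosome isolation. All cells grew in DMEM with 10% FCS and received no treatment. Each model is a single line, and the labels do not say whether the replicates were separate cultures, so the p-values below measure the spread between these libraries, which may be technical. The libraries held 196152 to 710902 reads, with inserts of 18 to 75 bases, and the gel bands cut for microRNA inserts limited what could be seen of longer fragments.

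Mitochondrial DNA encodes the RNAs of its own ribosome, its own tRNAs and a few subunits of the respiratory chain. Both strands are transcribed as long precursors in which tRNAs lie between the other genes, and enzymes that cut at both ends of each tRNA release the mature RNAs, after which the sequence CCA is added to the 3′ end of every tRNA. Mature tRNAs and rRNAs are abundant and can be cut further, and pieces that begin at a mature 5′ end or end in CCA are a common part of small-RNA libraries.

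Most of the mitochondrial reads came from a handful of sites. The sequences below are those the results turn on, in mouse build GRCm38 as annotated in GENCODE M21, written 5′ to 3′ on the gene's own strand, with the most read insert of the gene in capitals. mt-Ts2 encodes the mitochondrial serine tRNA for AGY codons (chrM:11613-11671, plus strand), and its leading insert is the first 22 bases. mt-Rnr2 encodes the large-subunit 16S rRNA (gene start chrM:1094, plus strand), of which the first 60 bases are shown with the leading 20-base insert. mt-Rnr1 encodes the small-subunit 12S rRNA, shown over bases 655 to 715 (chrM:724-784, plus strand), and its leading insert covers bases 675 to 695. mt-Tv is the valine tRNA gene between both rRNA genes (chrM:1025-1093, plus strand), shown with the added CCA, and its leading insert covers bases 51 to 72 of that 72-base sequence. mt-Tg and mt-Tl1, the glycine and the first leucine tRNA genes, illustrate tRNA fragments of low level that are internal and 5′ in position. mt-Tp and mt-Ty, the proline and tyrosine tRNA genes, are the genes with opposite differences between exosomes and TUBO cells. mt-Ts1, the serine tRNA for UCN codons, is the gene that stood apart from the other members in several comparisons.
mt-Ts2: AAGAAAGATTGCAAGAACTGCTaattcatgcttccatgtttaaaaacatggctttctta
mt-Rnr2: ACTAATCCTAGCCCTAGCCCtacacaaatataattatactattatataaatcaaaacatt
mt-Rnr1: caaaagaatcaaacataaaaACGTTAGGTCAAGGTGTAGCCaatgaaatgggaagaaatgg
mt-Tv with CCA: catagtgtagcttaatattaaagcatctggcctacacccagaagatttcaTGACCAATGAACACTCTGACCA
mt-Tg: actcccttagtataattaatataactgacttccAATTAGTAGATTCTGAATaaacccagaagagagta
mt-Tl1: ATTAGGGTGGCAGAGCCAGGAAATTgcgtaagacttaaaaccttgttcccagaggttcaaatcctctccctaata
mt-Tp: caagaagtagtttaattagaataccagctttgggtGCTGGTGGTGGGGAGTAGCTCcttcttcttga
mt-Ty: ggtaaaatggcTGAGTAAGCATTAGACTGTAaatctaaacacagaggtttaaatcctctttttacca
mt-Ts1: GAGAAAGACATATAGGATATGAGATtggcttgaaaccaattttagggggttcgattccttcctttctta

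The mitochondrial share of all reads was highest in MM3MG cells, where the 3 libraries held 1.57%, 1.05% and 0.946% (1.19% ± 0.337, SD, n = 3). MM3MG-Her2 libraries held 0.259%, 0.264% and 0.270% (0.264% ± 0.00536, n = 3). TUBO cell libraries held 0.583%, 0.494% and 0.512% (0.530% ± 0.0469, n = 3). The 3 cell groups did not overlap, and MM3MG replicate 1 lay well above the other libraries of its group. Exosome libraries held 0.248%, 0.319% and 0.445% (0.337% ± 0.0999, n = 3), each below every TUBO cell library. Supernatant libraries held 0.0149%, 0.0184% and 0.00548% (0.0129% ± 0.00666, n = 3), which rests on 34, 36 and 15 reads. These shares are a description with no test, and in bulk samples fewer cells and less RNA per cell cannot be told apart.

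The rest of each library differed between groups as well, and these values stand beside every share given here. Reads that match a microRNA hairpin made up 60.1% of MM3MG reads, 41.6% of MM3MG-Her2 reads, 64.2% of TUBO cell reads, 49.8% of exosome reads and 27.4% of supernatant reads, while reads that match no annotated transcript made up 33.0%, 50.3%, 30.3%, 41.2% and 66.1%. A list of 7 epithelial microRNA genes (the miR-200 family with Mir203 and Mir205) summed to 15.5 to 35.3 RPM (reads per 1000000 of all reads) over the MM3MG libraries, 6.31 to 17.6 RPM in MM3MG-Her2 and 16842 to 17485 RPM in TUBO cells, so the labelled epithelial type was nearly without these markers in both MM3MG groups. A stromal list of 6 genes summed to 83155 RPM, 30082 RPM and 16912 RPM on average in MM3MG, MM3MG-Her2 and TUBO cells. In TUBO cells nearly all of it was Mir143, at 16736 RPM. Mir199a-1 averaged 72.2 RPM there against 49861 RPM in MM3MG cells, and Mir214 averaged 0 against 1113 RPM. Blood microRNA genes summed to 36.2 to 50.5 RPM in TUBO cells, with 1 of 4 detected, and to 3171 to 6703 RPM in exosomes, with 4 of 4 detected. A list of 12 nuclear-encoded structural RNAs summed, on average, to 1037.5 RPM in MM3MG, 1470 RPM in MM3MG-Her2 and 1404 RPM in TUBO cells. The sum was 8793 RPM in exosomes and 12095 RPM in the supernatant. That sum rested on few members: Rny1 made up 4048 RPM of it in exosomes and Rnu1b1 9764 RPM in the supernatant, while Rmrp and Rnu11 were lower in exosomes than in TUBO cells (edgeR log2 −1.62 and −1.48, adjusted p = 0.0022 and 0.0042). Reads that match snoRNAs alone averaged 0.794% of all reads in MM3MG, 0.460% in MM3MG-Her2 and 0.445% in TUBO cells. They averaged 0.0723% in exosomes and 0.284% in the supernatant. Average shares of snRNA, nuclear rRNA and protein-coding reads were instead higher in both other cell groups than in MM3MG, and higher in exosomes than in TUBO cells. The part that any of these, or RNA from the serum in the medium, plays in the values below was not tested.

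Among untailed inserts, which are those the match rule keeps, mt-Ts2 and mt-Rnr2 had the most reads. Over the 15 libraries mt-Ts2 had 15968 reads (44.2% of all mitochondrial reads) and mt-Rnr2 had 13498 reads (37.3%), followed by mt-Rnr1 with 1984 reads (5.49%), mt-Co1 with 455 and mt-Tg with 386, down to mt-Tw with 9. The pair mt-Ts2 and mt-Rnr2 made up 87.6% ± 2.76 of mitochondrial reads in MM3MG, 83.0% ± 1.12 in TUBO and 77.4% ± 0.243 in MM3MG-Her2 cells, but 59.96% ± 1.84 of those in exosomes and 41.4% ± 14.6 of those in the supernatant (SD, n = 3 each). By class, tRNA genes held 45.3% to 56.2% of mitochondrial reads as group means and rRNA genes 24.1% to 47.6%. Protein-coding genes held 3.32% ± 1.18 in MM3MG cells and 4.11% ± 0.650 in TUBO cells, against 7.13% ± 0.911 for MM3MG-Her2 cells, 8.33% ± 0.431 for exosomes and 24.3% ± 11.2 for the supernatant, the last on 4, 10 and 5 reads. The 34 genes other than mt-Ts2, mt-Rnr2 and mt-Rnr1 together took 0.120% ± 0.00688 of all reads in MM3MG cells, 0.0688% ± 0.00334 in TUBO cells, 0.0677% ± 0.0202 in exosomes and 0.0412% ± 0.00172 in MM3MG-Her2 cells. These 34 genes thus overlapped in level between exosomes and TUBO cells, counting untailed inserts alone. tRNA inserts with an added CCA tail, described further on, took 0.237% to 0.287% of all reads in TUBO cells and 0.0547% to 0.0682% in exosomes, without overlap.

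Among untailed inserts, position within the gene separated the groups more clearly than class did. Inserts that begin within 2 bases of a gene's first base (5′-end fragments) made up 82.9% ± 3.67 of mitochondrial reads in MM3MG cells and 79.0% ± 2.49 in TUBO cells, against 61.5% ± 0.968 in MM3MG-Her2 and 37.8% ± 4.95 in exosomes (SD, n = 3). Internal inserts made up the reverse, from 16.8% ± 3.67 in MM3MG cells to 60.5% ± 5.18 in exosomes. Untailed inserts that end within 2 bases of the annotated last base stayed between 0.311% and 1.85% as group means, and none spanned a whole gene. These shares leave out tRNA 3′ ends with an added CCA tail, so 3′-end fragments were not rare. Tailed inserts averaged 0.429% of all reads in MM3MG, 0.131% in MM3MG-Her2 and 0.263% in TUBO cells and 0.0624% in exosomes. The untailed mitochondrial reads averaged 1.19%, 0.264%, 0.530% and 0.337% in that order. The 5′-end shares of exosomes (32.3% to 41.9%) lay below those of every cell library (60.7% to 87.1%), while those of the supernatant (41.7% to 64.7%) overlapped both.

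**Figure D1:**
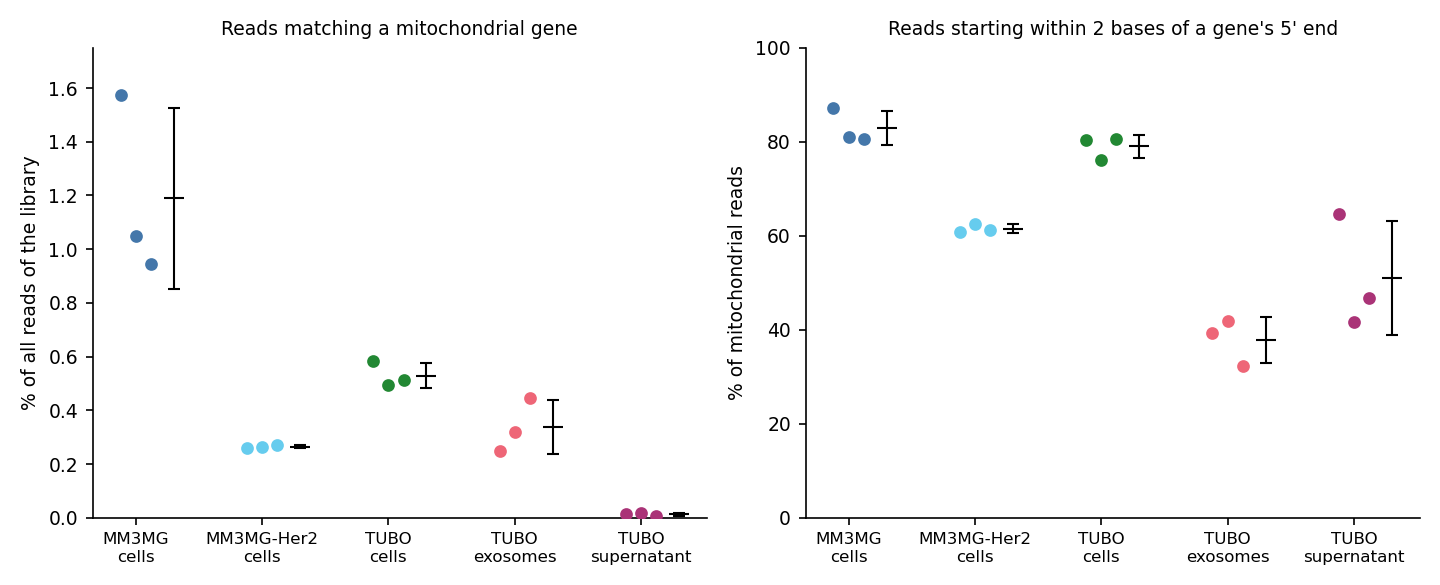
Mitochondrial reads as a percentage of all reads (left) and 5′-end fragments as a percentage of mitochondrial reads (right) in the 5 groups; each point is 1 library and the bars beside them are the mean ± SD of 3 libraries. MM3MG cells lie highest in both, at 1.19% and 82.9%, and exosomes lie lowest on the right, at 37.8%. Inserts with an added CCA tail are left out of both panels.

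**Figure D2:**
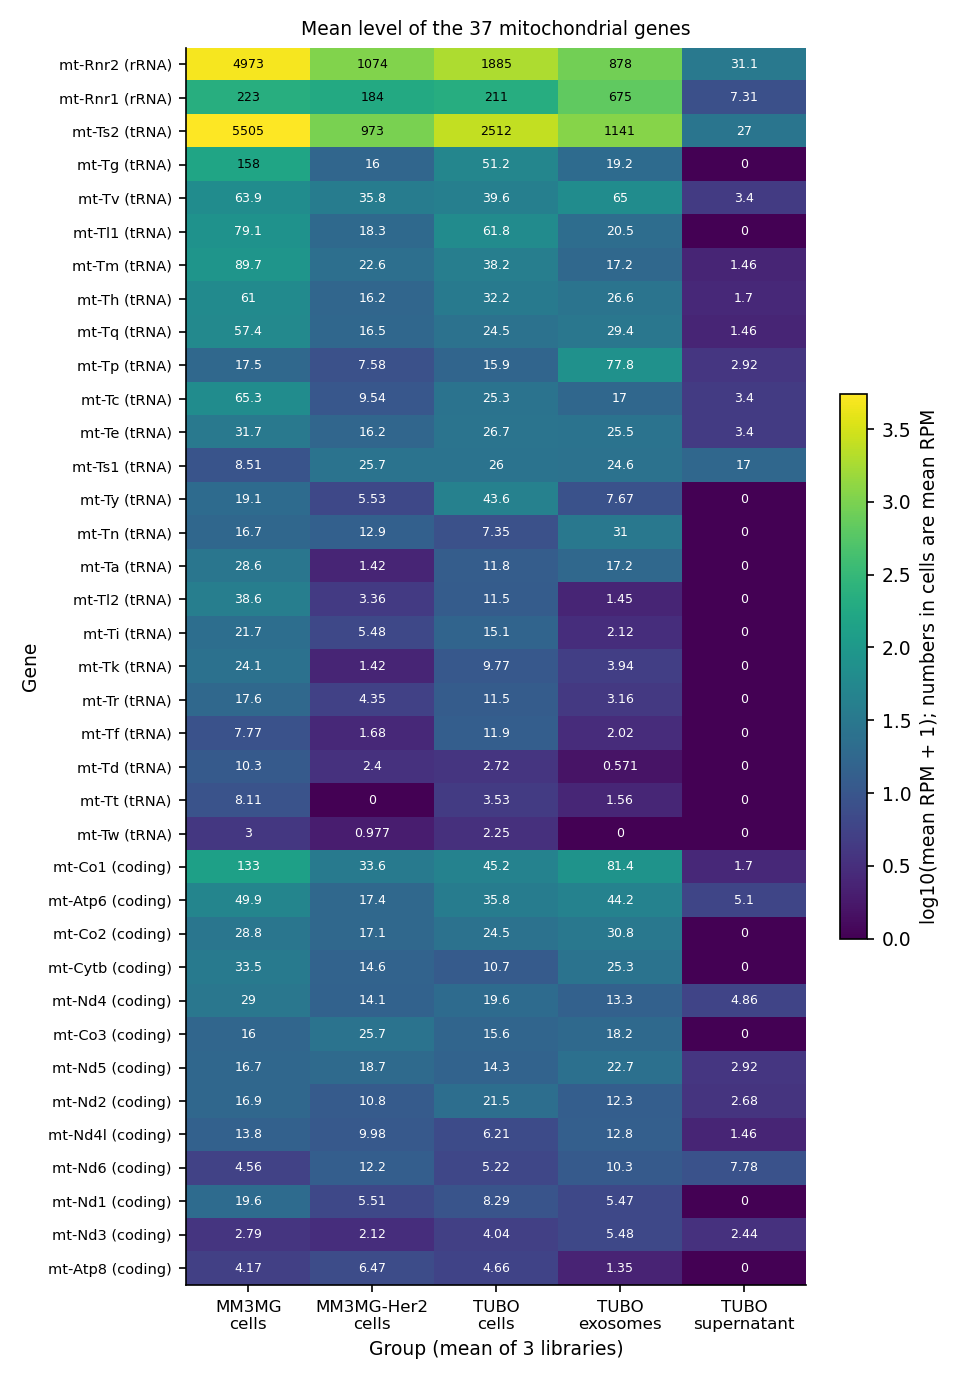
Mean RPM of 3 libraries for each of the 37 mitochondrial genes (vertical axis) in the 5 groups (horizontal axis); colour is log10 of mean RPM + 1 and the number in each cell is the mean RPM. mt-Ts2 and mt-Rnr2 exceed 1000 RPM in all cell groups except mt-Ts2 in MM3MG-Her2 cells (973 RPM), and most tRNA and coding genes stay below 100 RPM.

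MM3MG-Her2 compared with parental MM3MG cells addresses what differs between the line with and without the Neu vector. Mitochondrial fragments were lower in MM3MG-Her2 for most tested tRNA and coding genes and for mt-Rnr2, but not detectably for mt-Rnr1. Of 37 members, 21 had enough reads to be tested and 17 passed edgeR's quasi-likelihood test with Benjamini-Hochberg adjustment over all 445 features, 16 lower and 1 higher. Of all features tested in that comparison 63.8% passed (46.3% lower and 17.5% higher), so passing was common. The median log2 fold change of the members was −1.79, beside −0.51 over all features. Members with few reads in MM3MG-Her2 cells, such as mt-Tk (36 reads in MM3MG, 2 in MM3MG-Her2), had enough reads to be tested only through MM3MG or TUBO cells. The direction of these counts and of the median was therefore partly set by the choice of tested members. No conclusion is drawn from it. Among the tested members 11 of 13 tRNA genes, 1 of 2 rRNA genes and 4 of 6 coding genes were lower.

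mt-Ts2 stood at 6772, 5240 and 4503 RPM in the MM3MG libraries (mean 5505) and at 926, 942 and 1052 RPM in the MM3MG-Her2 libraries (mean 973). The groups did not overlap, and the level fell by 2.50 on the log2 scale (SE 0.16, edgeR adjusted p = 2.3e-09). mt-Rnr2 stood at 7508, 3786 and 3626 RPM in MM3MG and at 1088, 1101 and 1032 RPM in MM3MG-Her2, again without overlap, a fall of 4.63-fold between the means (log2 −2.21, SE 0.25, edgeR adjusted p = 9.7e-06). mt-Rnr1, which is processed from the same precursor as mt-Rnr2, gave 228, 233 and 209 RPM in MM3MG and 186, 168 and 199 RPM in MM3MG-Her2, and its difference of −0.28 did not pass (SE 0.17, adjusted p = 0.16). Its sign turned to 0.22 with RLE scaling and to 0.25 with microRNA reads as library size.

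Among the less abundant tRNA genes, mt-Tg went from 165, 165 and 145 RPM in MM3MG to 6.48, 21.0 and 20.5 RPM in MM3MG-Her2 (log2 −3.32, SE 0.30, edgeR adjusted p = 9.7e-08). mt-Tk, the lysine tRNA gene, had 36 reads in MM3MG and 2 in MM3MG-Her2, so that the pooled RPM were 15.2-fold apart, with 3.92 and 130 as the bounds of the 95% counting interval. mt-Tl2, the second leucine tRNA gene, fell by 3.52 (SE 0.60), mt-Tl1 by 2.12 (SE 0.34), mt-Tm, the methionine tRNA gene, by 2.02 (SE 0.28), mt-Th, the histidine gene, by 1.89 (SE 0.40) and mt-Tq, the glutamine gene, by 1.77 (SE 0.38) on the log2 scale. In each of these the MM3MG and MM3MG-Her2 libraries did not overlap, and mt-Tq lost its call under DESeq2 (−1.46, adjusted p = 0.051). mt-Ts1 alone among the tested members was higher, at 28.1, 16.8 and 32.2 RPM in MM3MG-Her2 against 9.58, 9.33 and 6.61 RPM in MM3MG (log2 1.53, SE 0.43, edgeR adjusted p = 0.0055). The value for mt-Ts1 turned to −0.035 with inserts that differ from the reference by 1 base included, and the call was lost without the filter on low counts (adjusted p = 0.14).

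Coding genes were lower as well. mt-Co1, the catalytic subunit of cytochrome c oxidase, went from 103, 145 and 152 RPM in MM3MG to 36.7, 37.8 and 26.4 RPM in MM3MG-Her2 (log2 −1.96, SE 0.26, edgeR adjusted p = 5.7e-06). mt-Atp6, a subunit of ATP synthase, fell by 1.45 (SE 0.37) and mt-Cytb, the cytochrome b of complex III, by 1.17 (SE 0.36), and both lost their call under DESeq2, mt-Cytb also with RLE scaling (adjusted p = 0.12) and without the filter on low counts. mt-Co2, the second oxidase subunit, averaged 28.8 RPM in MM3MG and 17.1 RPM in MM3MG-Her2 and did not pass (adjusted p = 0.12).

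TUBO cells compared with MM3MG cells gave the same direction at smaller size. Of the 21 tested members, 12 were lower and 2 higher in TUBO cells, where 70.6% of all features passed (42% lower, 28.5% higher). Under DESeq2 the count was 6, with 5 lower and 1 higher. The median log2 fold change of the members was −0.92, beside −0.26 over all features. Here too the direction was partly set by which members had enough reads to be tested. mt-Ts2, at 2898, 2227 and 2410 RPM in TUBO cells, was 1.13 lower on the log2 scale (edgeR adjusted p = 7e-06) and mt-Rnr2, at 1981, 1808 and 1867 RPM, fell by 1.40 (adjusted p = 0.00024). mt-Tg was at 52.0, 49.5 and 52.0 RPM (log2 −1.63, SE 0.24), mt-Co1 at 52.0, 45.7 and 38.0 RPM (log2 −1.56, SE 0.24) and mt-Cytb averaged 10.7 RPM (log2 −1.64, SE 0.36; not called by DESeq2, adjusted p = 0.072). All 5 of these genes were without overlap between TUBO and MM3MG libraries. mt-Rnr1 differed by −0.09 (SE 0.16, adjusted p = 0.64). The fall of mt-Th passed in the full fit (log2 −0.92, adjusted p = 0.024), with overlap, and was lost without MM3MG replicate 1 (−0.70, adjusted p = 0.058) or 2 and without TUBO cells replicate 1 or 2, as well as with RLE scaling (adjusted p = 0.089), without the filter on low counts (0.15) and under DESeq2 (0.31).

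The members higher in TUBO than in MM3MG cells were mt-Ty and mt-Ts1. mt-Ty stood at 41.3, 51.4 and 38.0 RPM in TUBO cells, at 19.2, 24.9 and 13.2 RPM in MM3MG and at 8.64, 2.10 and 5.86 RPM in MM3MG-Her2. Its rise over MM3MG was 1.13 (SE 0.34, edgeR adjusted p = 0.0072; DESeq2 0.082), and over MM3MG-Her2 it was 2.93 (SE 0.45, adjusted p = 3.1e-05). The insert from base 12 to base 31, shown in capitals above, had 31 reads in TUBO cells, 7 in MM3MG and 0 in MM3MG-Her2. mt-Ts1 stood at 27.5, 20.9 and 29.5 RPM in TUBO cells (log2 1.59 over MM3MG, SE 0.40, adjusted p = 0.0023), and this value too turned, to −0.12, with 1 mismatch allowed.

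TUBO cells compared with MM3MG-Her2 cells, both of which are labelled with a form of Neu, had 10 of 21 tested members higher, while 58.7% of all features passed 32.1% as higher and 26.5% as lower. The median log2 fold change of the members was 0.80, beside 0.18 over all features. As above, members with few reads in MM3MG-Her2 were tested only through the other cell groups, which partly sets this direction. mt-Ts2 was 2.58-fold higher in TUBO cells (log2 1.37, SE 0.16, edgeR adjusted p = 1.3e-06) and mt-Rnr2 1.76-fold higher (log2 0.81, SE 0.24, adjusted p = 0.012). mt-Tl1 averaged 61.8 RPM against 18.3 RPM (log2 1.78, SE 0.34) and mt-Tg 51.2 RPM against 16.0 RPM (log2 1.69, SE 0.33). mt-Tk had 19 reads in TUBO cells and 2 in MM3MG-Her2, pooled levels 6.43-fold apart with counting bounds of 1.55 and 57.0 at 95%, and its call was lost without TUBO cells replicate 1 (adjusted p = 0.054). Only 6 members passed with RLE scaling, 5 without the filter on low counts and 5 under DESeq2, and with microRNA reads as library size mt-Rnr2 was no longer called (log2 0.18).

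The 5′ end and the rest of mt-Ts2 and mt-Rnr2 were also counted as separate features, in fits added after the data were seen. In mt-Ts2 both parts were called lower than in MM3MG, the rest by more than the 5′ end. The log2 values were −2.47 for the 5′ end and −3.04 for the rest in MM3MG-Her2, and −1.09 and −2.03 in TUBO cells. The 5′ end of mt-Rnr2 stood at 7201, 3381 and 3249 RPM in MM3MG, at 628, 679 and 534 RPM in MM3MG-Her2 and at 1714, 1488 and 1623 RPM in TUBO cells, with no overlap between any pair of these groups. It was lower by 2.91 on the log2 scale in MM3MG-Her2 (SE 0.30, edgeR adjusted p = 1.4e-05 over 451 features) and by 1.52 in TUBO cells (SE 0.28, adjusted p = 0.00074) than in MM3MG. The rest of mt-Rnr2 went the other way or hardly differed: it stood at 307, 406 and 377 RPM in MM3MG and at 460, 422 and 498 RPM in MM3MG-Her2, a difference of 0.34 that did not pass (adjusted p = 0.099). It passed as higher with TMM scaling (log2 0.56, adjusted p = 0.016) and with microRNA reads as library size (log2 0.87).

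In TUBO cells the rest of mt-Rnr2 stood at 266, 320 and 243 RPM. That was 0.74 lower than in MM3MG-Her2 (SE 0.17, edgeR adjusted p = 0.0015) and 0.40 lower than in MM3MG, the latter call (adjusted p = 0.048) being lost without MM3MG replicate 2 or 3, without TUBO cells replicate 1 or 3 and with TMM scaling. Both values depended on inserts that differ from the reference by 1 base: with these included the difference was −0.0014 against MM3MG-Her2 (adjusted p = 1) and 0.32 against MM3MG. One site, base 1391 of mt-Rnr2, had 366 such reads in TUBO cells, beside 515 reads of the rest of mt-Rnr2 that match the reference exactly. Whether the inserts at this site come from mt-Rnr2 could not be checked.

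**Figure D3:**
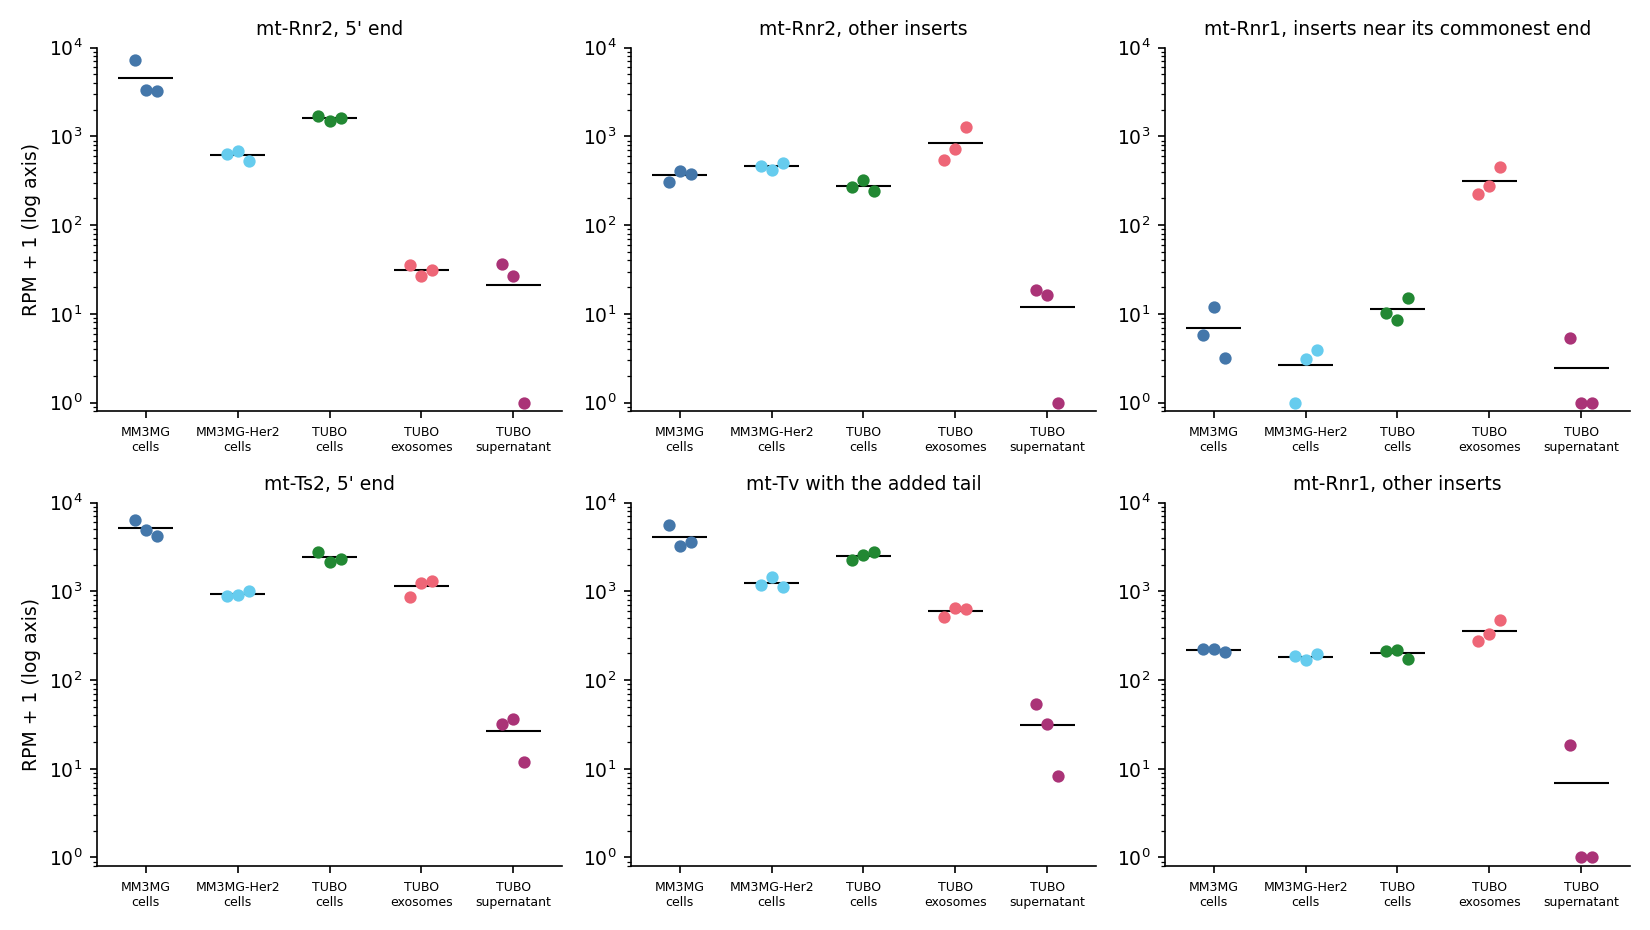
RPM + 1 on a log axis for 6 fragments in the 5 groups; points are libraries and lines are means of 3 libraries. The 5′ end of mt-Rnr2 averages 1609 RPM in TUBO cells and 30.01 RPM in exosomes, whereas the remaining mt-Rnr2 inserts average 276 and 848 RPM and mt-Rnr1 inserts that end within 2 bases of the gene's commonest end average 10.3 and 316 RPM.

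Exosomes from the medium of TUBO cultures compared with TUBO cells had 18 members tested, of which 8 passed, 6 lower and 2 higher in exosomes. Of all 552 features 63.6% passed (30.8% lower, 32.8% higher). The median log2 fold change of the members was −0.17, beside 0.00 over all features. mt-Ts2 stood at 882, 1242 and 1298 RPM in exosomes, below every TUBO cell library (log2 −1.14, SE 0.28, edgeR adjusted p = 0.0016). mt-Rnr2 as a whole stood at 579, 738 and 1316 RPM (log2 −1.10, adjusted p = 0.048), a call that ended without any 1 of the 3 TUBO cell libraries and without exosome replicate 1 or 2 (−0.88 to −1.13), and also with TMM, RLE or microRNA-read scaling (adjusted p = 0.067 to 0.20). mt-Rnr1 went the other way, at 495, 602 and 929 RPM in exosomes against 223, 225 and 184 RPM in TUBO cells (log2 1.68, SE 0.43, adjusted p = 0.0024).

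Within mt-Rnr2 the parts moved in opposite directions, in the fits of fragments that were added after the data were seen. Its 5′ end stood at 34.3, 25.7 and 30.1 RPM in exosomes, which is 53.6-fold lower than in TUBO cells (log2 −5.72, SE 0.50, edgeR adjusted p = 2.8e-08 over 560 features), and −5.83 to −5.63 when each library was left out in turn. The rest of mt-Rnr2 stood at 545, 712 and 1286 RPM in exosomes, which is 3.07-fold higher (log2 1.62, SE 0.41, adjusted p = 0.0020; 0.82, adjusted p = 0.048, with 1 mismatch allowed). As a share of the gene, 5′-end inserts made up 85.3% ± 2.58 of mt-Rnr2 reads in TUBO cells and 3.89% ± 1.85 in exosomes (SD, n = 3). In bins of 50 bases over the pooled libraries, bases 401 to 450 and 451 to 500 of mt-Rnr2 reached 146 and 160 RPM in exosomes, against 12.2 and 6.35 RPM in TUBO cells, and bases 801 to 850 reached 104 RPM against 21.2 RPM.

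**Figure D4:**
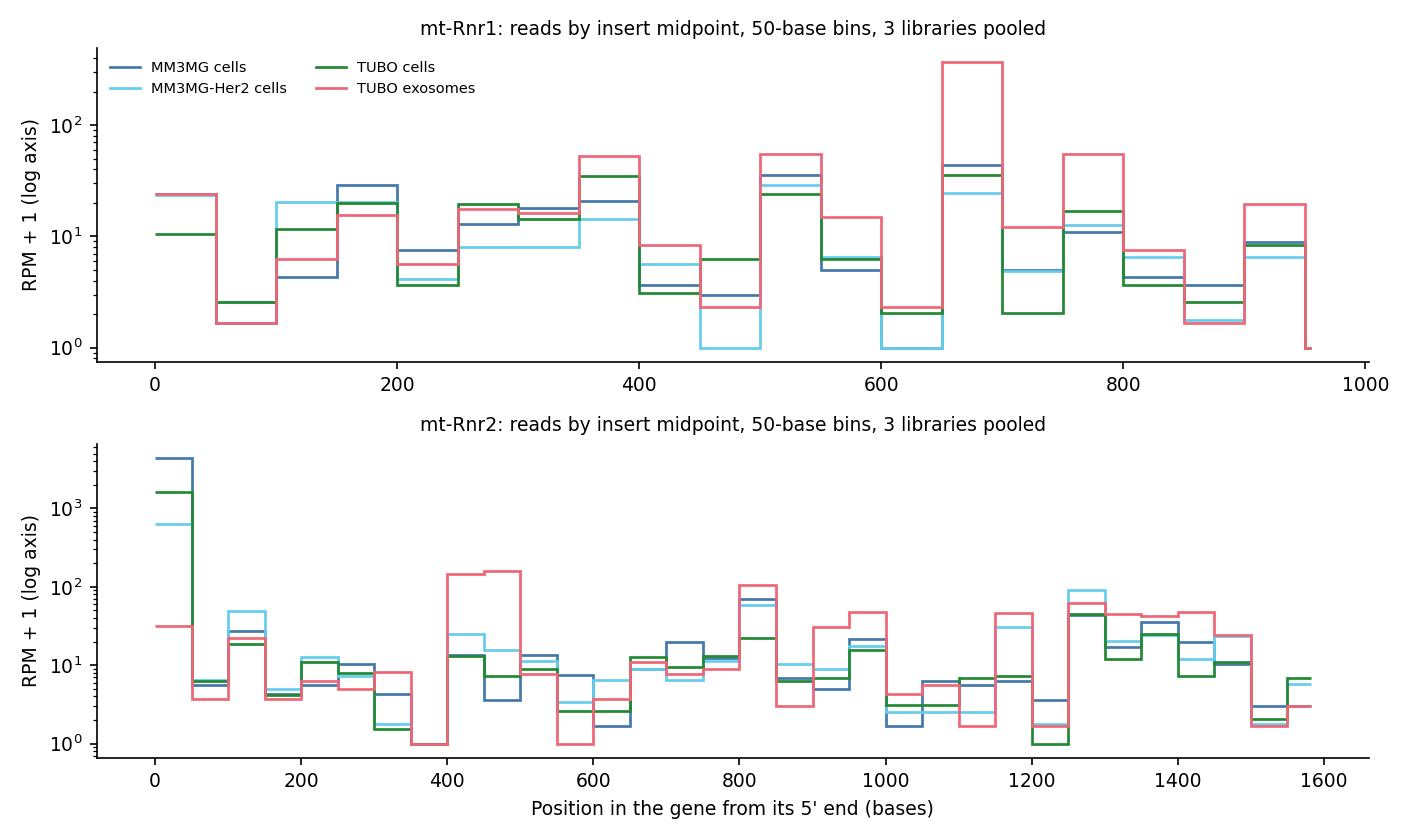
Reads of mt-Rnr1 (top) and mt-Rnr2 (bottom) by the position of the insert's midpoint in bins of 50 bases from the gene's 5′ end, as RPM + 1 on a log axis, with 3 libraries pooled in each of 4 groups (all but the supernatant). The first mt-Rnr2 bin holds 1619 RPM in TUBO cells and 30.5 RPM in exosomes, and the mt-Rnr1 bin from base 651 to 700 holds 34.4 and 369 RPM.

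Exosomal mt-Rnr1 reads were concentrated at 1 site. Inserts that end within 2 bases of base 695, the end of the capitals shown above, gave 223, 273 and 451 RPM in exosomes and 9.18, 7.61 and 14.1 RPM in TUBO cells, a 30.7-fold difference in means with no overlap. The site was picked from these values and so carries no test. MM3MG libraries held 4.79, 10.9 and 2.204 RPM of these inserts, MM3MG-Her2 libraries 0, 2.10 and 2.93 RPM, and the supernatant a single read. Base 695 was the commonest end in exosomes (30.8% of mt-Rnr1 reads), whereas base 702 was the commonest end in each cell group (6.84% to 10.6%). All other mt-Rnr1 inserts stood at 272, 329 and 478 RPM in exosomes and 214, 217 and 170 RPM in TUBO cells.

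Among tRNA genes, mt-Tp rose in exosomes, at 46.3, 46.7 and 140 RPM against 18.4, 15.2 and 14.1 RPM in TUBO cells (log2 2.27, SE 0.50, edgeR adjusted p = 0.00059). Exosome replicate 3 was the highest, and the other 2 exosome libraries also lay above every TUBO cell library. Its inserts came from another part of the tRNA: 5′-end inserts made up 47.2% ± 4.81 of mt-Tp reads in TUBO cells and 2.14% ± 2.58 in exosomes, where 53.8% of pooled reads ended at base 56, the last capital above. mt-Ty fell, from 41.3, 51.4 and 38.0 RPM to 11.99, 7.004 and 4.01 RPM (log2 −2.42, SE 0.52, adjusted p = 0.00062). mt-Tl1 averaged 20.5 RPM in exosomes and 61.8 RPM in TUBO cells (log2 −1.61, adjusted p = 0.0086), a call lost without TUBO cells replicate 3 (adjusted p = 0.051), and mt-Tg averaged 19.2 and 51.2 RPM (log2 −1.43, adjusted p = 0.014), lost without exosome replicate 1 (−1.04, adjusted p = 0.079) or TUBO cells replicate 3. DESeq2 called neither of them, and TMM scaling ended the call of mt-Tg (adjusted p = 0.068). mt-Tm averaged 17.2 and 38.2 RPM (log2 −1.14, adjusted p = 0.034), a call lost without any 1 of the TUBO cell libraries or without exosome replicate 1 or 2, and under each scaling alternative. Among the coding genes, mt-Co1 stood at 53.1, 88.7 and 102 RPM in exosomes and 52.0, 45.7 and 38.0 RPM in cells and did not pass (log2 0.84, edgeR adjusted p = 0.071), and mt-Atp6 and mt-Co2 differed by 0.30 and 0.34 without passing.

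The CCA tail changed the picture for mt-Tv, because an insert that ends in added bases does not match the gene over its full length. Inserts with a whole or partial tail (C, CC or CCA) had 13905 reads, of which 13323 belonged to mt-Tv, 146 to mt-Te, the glutamate gene, and 81 to mt-Tw, the tryptophan gene, while mt-Ts2, with 15968 untailed reads, had 3. Of these reads, 13414 (96.5%) ended in the complete CCA. A whole or partial tail was on 97.7% of all mt-Tv reads, which with 13323 tailed and 320 untailed reads came to more than those of mt-Rnr2, so the untailed count represents a small part of this gene. Tailed mt-Tv inserts stood at 5587, 3205 and 3558 RPM in MM3MG, 1192, 1436 and 1132 RPM in MM3MG-Her2 and 2254, 2550 and 2761 RPM in TUBO cells, an order in which no groups overlapped. Exosomes held 519, 644 and 636 RPM and the supernatant 52.6, 30.6 and 7.31 RPM.

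Tested as a feature of its own, the tailed mt-Tv fragment was lower in MM3MG-Her2 than in MM3MG (log2 −1.71, SE 0.19, edgeR adjusted p = 1.2e-06), higher in TUBO than in MM3MG-Her2 cells (1.01, adjusted p = 0.00022) and lower in exosomes than in TUBO cells (−2.07, SE 0.34, adjusted p = 3.1e-05). Untailed mt-Tv gave 0.71 for exosomes against cells (adjusted p = 0.14), and counting both together gave −1.95. With microRNA reads as library size the value of the tailed fragment for TUBO against MM3MG-Her2 cells was 0.39 (adjusted p = 0.14). The fit of the tailed fragment too was added after the data were seen.

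Insert lengths at the leading ends differed by group. mt-Ts2 inserts that start at base 1 varied in length by group: 22 bases made up 36.7% ± 1.41 of them in MM3MG, 47.7% ± 1.13 in TUBO and 26.4% ± 1.38 in MM3MG-Her2 cells and 48.1% ± 0.924 in exosomes, and 19 bases made up 23.8% ± 2.10, 8.10% ± 1.12, 29.2% ± 3.14 and 41.3% ± 2.12 in that order (SD, n = 3). The 25-base form made up 9.59% to 15.9% in the cell groups and 0.851% ± 0.284 in exosomes. mt-Rnr2 inserts from base 1 were most often 20 bases long in MM3MG (41.4% ± 8.90) and most often 24 or 25 bases long in MM3MG-Her2 (28.8% and 27.2%) and TUBO cells (24.2% and 25.2%). The 20-base form, in capitals above, had 2842 reads in MM3MG, 55 in MM3MG-Her2 and 233 in TUBO cells, whereas the 25-base form had 329, 214 and 762. Tailed mt-Tv inserts were 22 bases long in 68.2% to 72.9% of reads in the cell groups and in 19.0% ± 9.54 in exosomes, where 18 bases made up 39.3% ± 13.8.

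**Figure D5:**
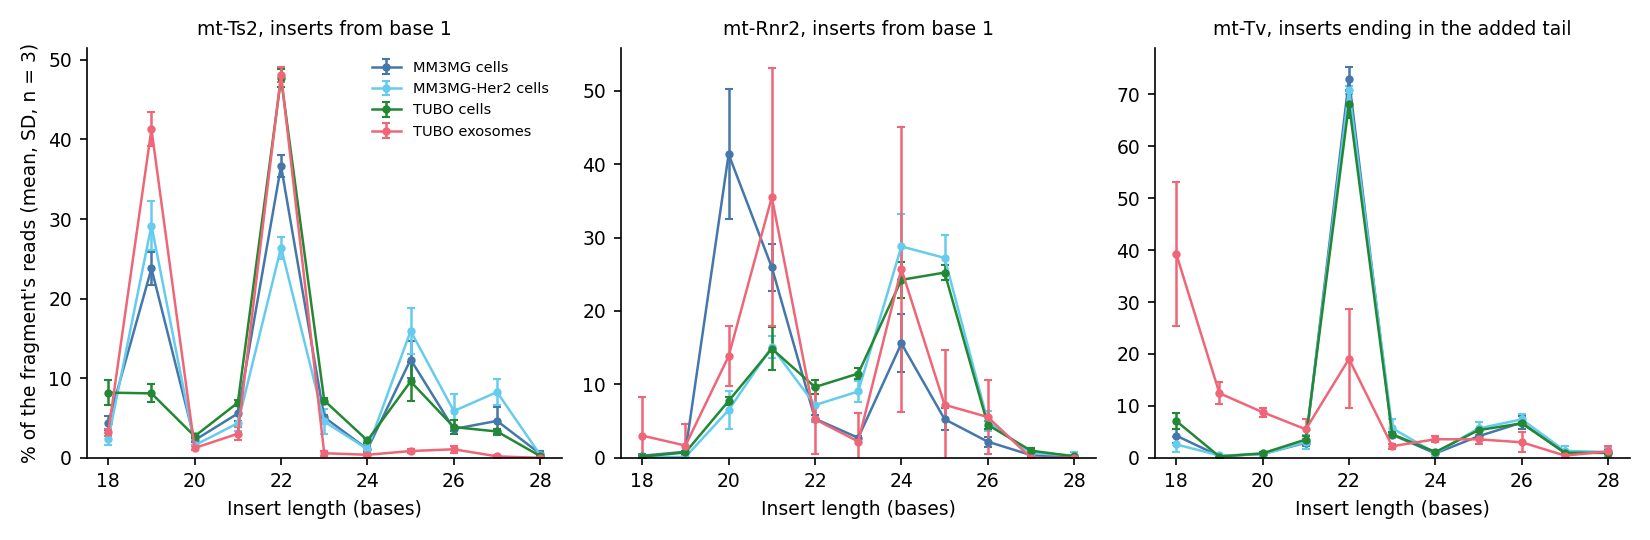
Share of a fragment's reads by insert length (bases) for mt-Ts2 inserts from base 1, mt-Rnr2 inserts from base 1 and mt-Tv inserts that end in the added tail; points are means of 3 libraries and bars SDs, cut at 0. Exosomes differ from TUBO cells in the 19-base mt-Ts2 form (41.3% against 8.10%) and the 22-base mt-Tv form (19.0% against 68.2%), and their mt-Rnr2 curve rests on 46 reads.

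The supernatant left after exosome isolation held few mitochondrial reads. Exosomes against supernatant gave 16 of 18 tested members higher in exosomes (67.9% of all features passed, 48.9% higher), and supernatant against TUBO cells gave 17 of 18 lower (80.1% passed, 42.9% lower). These comparisons share the supernatant libraries and are given side by side. With 34, 36 and 15 mitochondrial reads in the supernatant libraries, members had enough reads to be tested only through TUBO cells or exosomes. The direction of these counts was therefore largely set by the choice of tested members, and no conclusion is drawn from it. mt-Ts2, at 30.7, 35.7 and 14.6 RPM in the supernatant, was 42.3-fold lower than in exosomes and 93.0-fold lower than in TUBO cells. It too was tested only through those groups, so these values are given as a description. mt-Rnr1 had 5 supernatant reads, all in replicate 1 (21.9, 0 and 0 RPM), so that no exact fold can be given. mt-Tl1, mt-Tg and mt-Ty had 0 supernatant reads, so that against a floor of 3 reads over the group they were at least 14.8-fold, 11.9-fold and 9.97-fold lower than in TUBO cells. Leaving the third group out of each fit reduced the calls to 7 and 11.

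mt-Ts1 was the member for which neither supernatant comparison passed. It stood at 17.5, 15.3 and 18.3 RPM in the supernatant (12 reads), 29.1, 18.7 and 26.1 RPM in exosomes and 27.5, 20.9 and 29.5 RPM in TUBO cells. The difference was 0.53 for exosomes against supernatant (SE 0.52, edgeR adjusted p = 0.37) and −0.60 for supernatant against cells (SE 0.51, adjusted p = 0.28), so at these counts a difference was not detectable. The 5′ end of mt-Rnr2 likewise did not differ detectably between exosomes (46 reads) and supernatant (13 reads, at 35.1, 25.5 and 0 RPM), with a log2 difference of 0.65 (SE 0.60, adjusted p = 0.33).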

How the data were processed

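Per the labels, total RNA from each culture, exosome or supernatant sample was extracted with TRIzol, ligated to a 3′ and then a 5′ adapter, amplified and cut from gels at microRNA insert size; no molecular identifiers are named. The authors deposited, for each sample, distinct insert sequences with their read counts (whole numbers). No source used here gives the trimming or any filter. Inserts were matched without mismatch to 141767 transcripts of GENCODE M21 (GRCm38), including 2201 microRNA hairpin genes. Matching to transcripts does not separate mouse from bovine RNA or mitochondrial genes from nuclear copies outside annotated transcripts; 2.29% to 12.0% of mitochondrial reads, as group means, also matched another transcript.

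Counts per feature were tested with edgeR 4.0.16 (R 4.3.3; quasi-likelihood test, filterByExpr, all reads as library size, threshold 0.05 after Benjamini-Hochberg adjustment), the cell groups and the TUBO-derived groups each in 1 fit of 9 libraries. Given intervals are 95% counting intervals and, like the floor of 3 reads, cover counting error only. The fit was tested on simulated data. Named genes were both rRNA genes, the 8 tRNA and 4 coding genes with the highest mean share, and the 3 largest called rises and falls per comparison among called genes whose groups did not overlap; any other gene or site named was chosen after its values were seen. The fits of gene fragments and the search for sites with another base were chosen after seeing the data. Members and lists were chosen with earlier results of these data known. Alternatives were TMM and RLE scaling, microRNA reads as library size, no filter, DESeq2 1.42.0, CCA tails, 1 mismatch, inserts of 18 to 26 bases, unique matches, only the compared groups, a replicate block and leaving out each library. No replicate pair held identical values (chi-square over degrees of freedom 3.32 to 36.2).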

Additional observations from a re-analysis of the deposited data

Results flagged for a closer look

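Reads on the strand opposite to a mitochondrial gene lie outside the measurement above and exceeded the level that a count of 0 allows. Antisense mt-Ts1 reads were 120, 254 and 143 in the supernatant libraries (741 RPM pooled, 517 reads), 12, 3 and 10 in exosomes and 0 in TUBO cells, so that the supernatant was at least 467-fold above the TUBO cell floor of 1.59 RPM. Antisense reads of other genes peaked at 82.5 RPM for mt-Nd5 in MM3MG cells (125 reads), 39.7 RPM for mt-Ti in TUBO cells (75 reads, against 1 in exosomes), 22.7 RPM for mt-Cytb, 17.97 RPM for mt-Nd4 and 14.1 RPM for mt-Co3 in MM3MG-Her2 cells, 13.2 RPM for mt-Tp in MM3MG cells, 13.2 RPM for mt-Nd1 in TUBO cells and 11.6 RPM for mt-Tq in TUBO cells.

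Inserts that cross the border of 2 mitochondrial genes were most frequent in MM3MG cells, at 21.1 RPM (32 reads): 24 across mt-Rnr2 and mt-Tl1, 5 across mt-Th and mt-Ts2 and 3 across mt-Tv and mt-Rnr2.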

How the results depend on the processing

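Among named genes and fragments, 623 of the values with 1 library left out kept direction and side of the threshold, 40 lost and 2 gained a call and 5 reversed; under the other alternatives 982 kept both, 69 lost, 16 gained and 24 reversed. TMM, RLE and microRNA-read scaling moved the median of all features by 0.21, 0.49 and 0.53 for MM3MG-Her2 against MM3MG, 0.11, 0.27 and −0.08 for TUBO against MM3MG, −0.12, −0.22 and −0.66 for TUBO against MM3MG-Her2, 0.31, 0.04 and 0.52 for exosomes against cells, 0.00, −0.59 and −1.10 for exosomes against supernatant, and 0.31, 0.55 and 1.84 for supernatant against cells. Correlations between libraries of the same replicate number were −0.0873 to 0.209, and those of different numbers −0.216 to 0.195, so no clear pairing was seen. In both supernatant comparisons all same-number values were positive, so pairing is not excluded there. With the replicate numbers as a block 17, 14, 10, 7, 16 and 17 members were called, in the order of comparisons just given.

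Leaving out 1 library gave 16 to 20, 12 to 14, 8 to 10, 5 to 8, 16 to 19 and 16 to 17 called members, the 5 for exosomes against cells without TUBO cells replicate 3, and share differences in percentage points of −1.05 to −0.733, −0.782 to −0.468, 0.239 to 0.283, −0.246 to −0.148, 0.270 to 0.369 and −0.534 to −0.490. Called members fell to 6 for TUBO against MM3MG (DESeq2); to 6 (RLE), 5 (no filter) and 5 (DESeq2) for TUBO against MM3MG-Her2; to 5 (DESeq2) for exosomes against cells; and, with only the 2 groups fitted, to 7 for exosomes against supernatant and 11 for supernatant against cells, where fewer libraries enter. As shares of microRNA reads the differences became −1.37, −1.18, 0.188, 0.633 (exosomes against supernatant) and −0.778 (supernatant against cells); with CCA tails 0.397 (TUBO against MM3MG-Her2), −0.393 (exosomes against cells) and −0.777; and with 1 mismatch −0.601.

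Reversed log2 values, all but those of mt-Ts1 and the rest of mt-Rnr2 not called in the main fit, were: MM3MG-Her2 against MM3MG, mt-Rnr1 0.22 (RLE), 0.25 (microRNA reads) and 0.073 (DESeq2), and mt-Ts1 −0.035 (1 mismatch). TUBO against MM3MG gave mt-Rnr1 0.016 (TMM), 0.18 (RLE), 0.077 (DESeq2) and −0.13 to 0.0024 with a library left out (highest without TUBO cells replicate 3), mt-Co2 0.0043 (RLE), mt-Ts1 −0.12 (1 mismatch) and the rest of mt-Rnr2 0.32 (1 mismatch). TUBO against MM3MG-Her2 gave, with microRNA reads, mt-Rnr1 −0.43, mt-Co1 −0.22, mt-Tv −0.43, mt-Tq −0.049 and mt-Co2 −0.19, and otherwise mt-Rnr1 −0.037 (RLE) and mt-Tv −0.040 (RLE), −0.016 (DESeq2), −0.00072 (1 mismatch) and −0.016 to 0.47 with a library left out (lowest without MM3MG-Her2 replicate 2). Exosomes against cells gave mt-Tv −1.95 (CCA), mt-Th 0.10 (TMM) and 0.085 (microRNA reads), and with a library left out mt-Tq −0.036 to 0.62 and mt-Co2 −0.35 to 0.65 (both lowest without exosome replicate 3). Exosomes against supernatant gave the 5′ end of mt-Rnr2 −0.19 (microRNA reads), −0.038 (1 mismatch) and −0.014 to 1.43 with a library left out (lowest without supernatant replicate 3). Beyond the cases named, the cause was not tested. Depth limits the supernatant, with 15 to 36 mitochondrial reads per library, and inserts under 18 bases or outside the gel band were not seen.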

Other observations

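At 5 of 10095 covered sites, 40 or more reads and at least 10% of reads carried another base, 2 or more bases inside the insert, with positions counted from the gene's first base. At base 1391 of mt-Rnr2, 366 of 376 reads in TUBO cells differed from the reference (97.3%, 95% Wilson interval 95.2% to 98.5%; 143 of 148, 95 of 96 and 128 of 132 by library), 365 of them as T1391A. The other base was carried by 13 of 17 reads in MM3MG cells, 12 of 25 in MM3MG-Her2 cells and 1 of 11 in exosomes (9.09%, interval 1.62% to 37.7%). The insert that leads at this site covers bases 1376 to 1393, and 249 of its 266 reads were in TUBO cells. It is 18 bases long, the shortest length in the files, and made up most of the TUBO cell reads with another base. The interval counts reads of 1 insert as independent. Whether these inserts come from another place than mt-Rnr2, such as a nuclear copy, could not be checked, so a variant of mitochondrial DNA is not shown.

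The other sites were base 9 of mt-Tl1 (another base in 22.9% of MM3MG, 5.13% of MM3MG-Her2, 18.2% of TUBO cell and 34.8% of exosome reads), base 9 of mt-Tl2 (71.4% of MM3MG and 70.6% of TUBO cell reads), base 29 of mt-Ts1 (87.1% of MM3MG reads, 27 of 31, and 61.5% of TUBO cell reads, 8 of 13) and base 25 of mt-Rnr2 (54.9% of MM3MG and 4% of TUBO cell reads). At base 9 of both leucine tRNAs all 3 other bases were seen, whereas at base 29 of mt-Ts1 45 of 50 such reads were C29T.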
